A study of Mus musculus with 18 samples.

Results

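The genes examined were 44 genes of the motile cilium axoneme, picked by symbol from the 54532 genes of a mouse larynx mRNA-seq count table, and all 44 were found. They comprise axonemal dynein heavy chains, factors that assemble and dock dyneins, radial spoke and central apparatus proteins, proteins inside the doublet microtubules, tether, tip and base proteins, and the transcription factor gene Rfx3. Their levels were compared between 3 groups of 6 libraries each. Smoke libraries came from mice that breathed 3R4F research cigarette smoke, e-cigarette libraries from mice that breathed aerosol of JUUL Virginia tobacco, and air libraries from mice kept in room air. All mice were C57BL6/J males aged 8 to 9 weeks, and were placed in a whole-body chamber for 1 hour at a time, on 5 days a week over 4 weeks. RNA came from the whole larynx, so each library mixes surface epithelium with glands, cartilage, muscle and adjoining tissue.

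Motile cilia are the beating projections of multiciliated cells, which line much of the laryngeal and tracheal airway and move mucus out of it. Their core, the axoneme, is a ring of doublet microtubules around a central pair. Outer and inner dynein arms slide neighbouring doublets against each other. Radial spokes and the central apparatus regulate the arms, nexin links limit the sliding, and proteins inside the doublets stiffen them. Loss of single components such as DNAH5, CCDC39 or RSPH4A causes primary ciliary dyskinesia in humans. Axonemal genes are switched on together when a cell becomes multiciliated, by the transcription factors FOXJ1 and RFX3 among others.

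Libraries held 15.9 to 20.3 M counts in smoke, 16.7 to 22.5 M in e-cigarette and 15.6 to 17.1 M in air. All 44 genes passed the filter on low counts and were among the 17537 genes tested. The larynx was checked for ciliated epithelium with 10 markers of multiciliated cells that are not among the 44, of which 9 were found by symbol. All 9 were detected in every library. Their summed level was 366.9 to 446.3 counts scaled to 1 M per library (CPM) in smoke, 523.3 to 743.4 CPM in e-cigarette and 449.5 to 628.1 CPM in air. Most of that sum was Tubb4b, at a mean of 283 CPM in smoke, 391 CPM in e-cigarette and 342 CPM in air. Libraries stood apart within 2 groups. Air 4, 5 and 6 had summed gland markers of 9045, 2103 and 4179 CPM, against 25360, 34170 and 31210 CPM in air 1, 2 and 3. Their cartilage markers summed to 77.42, 42.12 and 43.88 CPM, against 371.4, 230.6 and 216.1 CPM. E-cigarette 2, 4, 5 and 6 had summed thyroid follicle markers of 791.1, 123.3, 119.8 and 2901 CPM, against 26830 and 29210 CPM in e-cigarette 1 and 3, 57870 to 95390 CPM in smoke and 56750 to 98570 CPM in air. The 44 genes were also fitted without these libraries, and the numbers called are given below. The marker lists and the other cilium lists were fitted only with all 18 libraries.

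The sequence before the start sites of the 44 genes was searched for the core motifs of RFX and forkhead proteins. In the RefSeq promoter table (GRCm38.p6, the build of the counts), 38 of the 44 genes had an entry. The half-site bound by RFX proteins, written GTTGCC or GGCAAC on the opposite strand, stood within 250 bases upstream of the start in 14 of 38 (36.8%). Among the tested genes with an entry it stood in 1360 of 12624 (10.8%). The forkhead core GTAAACA, or TGTTTAC on the opposite strand, stood in 4 of 38 (10.5%), the promoters of Ak7, Cfap43, Mlf1 and Sntn, against 298 of 12624 (2.36%). Neither motif contains the other. Of the 29 genes with an entry that were lower in smoke than in e-cigarette, 11 held the RFX half-site and 4 the forkhead core. A match of 6 or 7 letters describes the sequence and does not show binding. The promoters of Drc1 (chr5:30281143-30281392, plus strand), Lrrc23 (chr6:124779728-124779977, minus strand) and Dnah7a (chr1:53706785-53707034, minus strand) are shown as the 3 with the smallest p in that comparison among those with a match. Each runs 5′ to 3′ in the direction of the gene and ends at the base before the RefSeq start, and capitals mark the RFX half-site.
Drc1: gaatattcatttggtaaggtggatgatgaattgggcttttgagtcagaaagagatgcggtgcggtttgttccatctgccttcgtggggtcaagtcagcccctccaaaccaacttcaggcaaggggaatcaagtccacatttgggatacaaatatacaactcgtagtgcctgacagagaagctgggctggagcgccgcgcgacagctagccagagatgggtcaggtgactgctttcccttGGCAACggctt
Lrrc23: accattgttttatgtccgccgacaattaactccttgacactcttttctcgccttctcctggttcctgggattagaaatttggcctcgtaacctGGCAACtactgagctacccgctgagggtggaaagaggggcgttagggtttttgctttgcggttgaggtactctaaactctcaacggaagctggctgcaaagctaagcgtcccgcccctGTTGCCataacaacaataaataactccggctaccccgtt
Dnah7a: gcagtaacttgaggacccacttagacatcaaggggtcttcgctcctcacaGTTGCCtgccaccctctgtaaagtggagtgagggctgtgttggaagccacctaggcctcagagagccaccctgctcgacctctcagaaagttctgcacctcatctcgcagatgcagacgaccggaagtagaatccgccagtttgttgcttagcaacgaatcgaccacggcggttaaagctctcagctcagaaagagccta
The exact match begins 11 bases before the start in Drc1 and 200 bases before it in Dnah7a. Near matches to the half-site were neither sought nor marked. Lrrc23 holds 1 match on each strand, beginning 157 and 39 bases before its start.

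**Figure D1:**
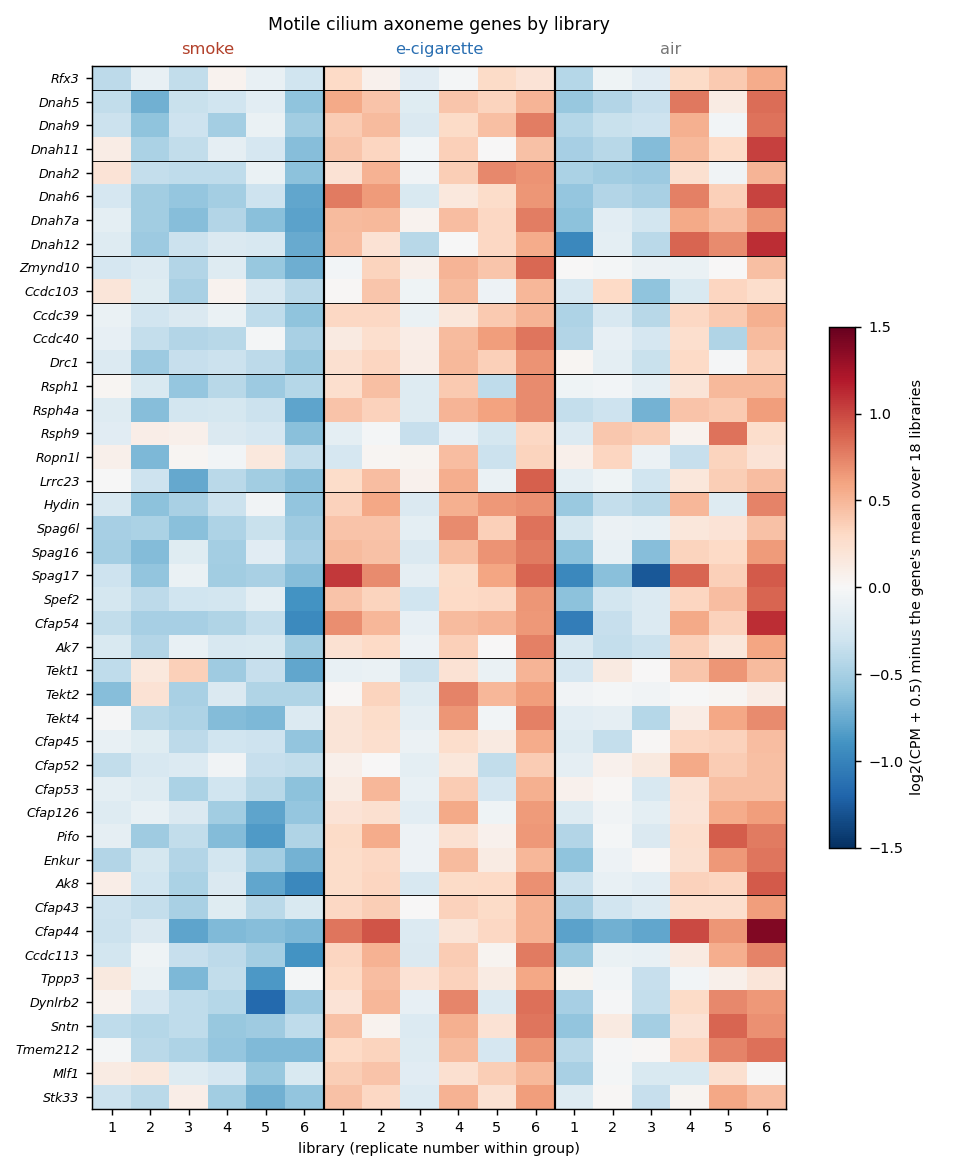
Level of each of the 44 axoneme genes (rows, grouped by role between the lines) in each of 18 libraries (columns), as log2(CPM + 0.5) minus the gene's mean over the 18 libraries. The smoke columns are mostly blue, e-cigarette 6 and air 6 are the reddest columns, and air 1, 2 and 3 differ in colour from air 4, 5 and 6.

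Axoneme genes were lower in smoke than in e-cigarette as a group. Of the 44 genes, 35 fell (adjusted p below 0.05, edgeR quasi-likelihood test adjusted over all genes tested), which is 79.5% where 6.10% of all tested genes were called lower, and none was called higher (background 10.4%). The log2 fold change was below 0 in 44 of 44 genes, against 51.0% of all tested genes, with a median of -0.75 (range -1.13 to -0.08) against a median of -0.01 over all genes. In 15 genes (34.1%, background 2.72%) every smoke library lay below every e-cigarette library. In none did smoke lie wholly above e-cigarette (background 6.65%). The 15 were Dnah6, Dnah7a, Zmynd10, Ccdc40, Drc1, Rsph4a, Spag6l, Cfap54, Ak7, Cfap45, Pifo, Enkur, Cfap43, Cfap44 and Sntn. In these bulk libraries fewer ciliated cells, less RNA per ciliated cell and a different share of other tissue cannot be told apart.

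Against air, the same direction was seen in smoke with far fewer calls. Cfap52 and Spag6l fell, 2 of 44 (4.55%, where 0.616% of all tested genes were called lower and 1.59% in either direction), and none was called higher (background 0.975%). All 44 log2 fold changes were below 0 (48.4% of all genes), with a median of -0.53 (range -0.97 to -0.03) against 0.01 over all genes, and 34 of 44 had an unadjusted p below 0.05, against 19.9% of all genes. In Zmynd10 and Spag6l (background 0.890%) every smoke library lay below every air library, and in no gene did smoke lie wholly above air (background 1.54%). Few of the 44 differed between e-cigarette and air by this test. Dnah2, Ccdc40, Mlf1 and Spag6l rose, 4 of 44 (9.09%), which is below the 12.1% of all tested genes called higher and the 25.1% called in either direction. The median was 0.18 (range -0.41 to 0.53), 7 of 44 values were below 0 (49.2% of all genes), none was called lower (background 13.0%), and no gene separated the 2 groups completely in either direction (background 4.50% higher and 6.00% lower). The 2 comparisons with air share the same 6 air libraries, and smoke against e-cigarette is the difference between them.

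**Figure D2:**
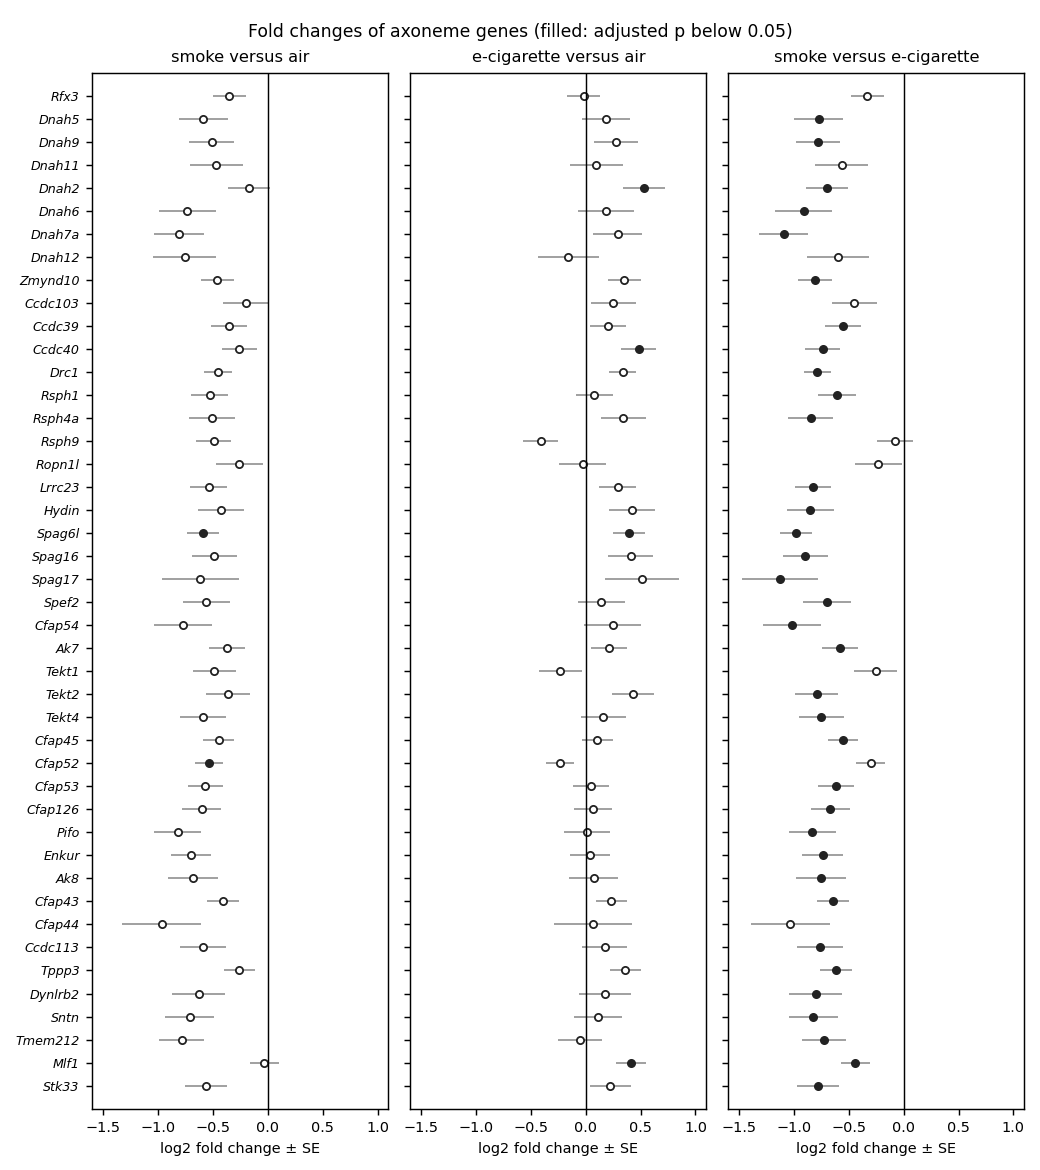
Log2 fold change ± SE (edgeR, n = 6 libraries in each group) of the 44 genes in smoke versus air, e-cigarette versus air and smoke versus e-cigarette, with filled points for adjusted p below 0.05. Filled points number 2, 4 and 35, and every point for smoke versus air and smoke versus e-cigarette lies left of 0.

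The air group was spread far more widely than either exposed group. The median coefficient of variation of the 44 genes was 16.7% in smoke, 21.0% in e-cigarette and 31.9% in air, and air had the largest value of the 3 groups in 34 of 44 genes. Air 1, 2 and 3 lay above every smoke library in 4, 16 and 8 of the 44 genes, while air 4, 5 and 6 did so in 37, 39 and 42. Air 4, 5 and 6 lay below every e-cigarette library in 5, 3 and 0 genes, while air 1, 2 and 3 did so in 35, 20 and 27. Air 1 and 3 were within or below the smoke range in 40 and 36 genes, air 4, 5 and 6 within or above the e-cigarette range in 39, 41 and 44, and air 2 lay between, within or below smoke in 28 and within or above e-cigarette in 24. Air 4, 5 and 6 are also the libraries with low gland and cartilage markers. Their multiciliated markers summed to 521.3, 449.5 and 574.9 CPM, against 550.8, 484.4 and 628.1 CPM in air 1, 2 and 3. Tubb4b, at a mean of 342 CPM in air, made up most of this sum, which thus says little about the other markers. Foxj1 was at 97.65, 73.66 and 114.6 CPM in air 4, 5 and 6, against 76.61, 74.09 and 73.3 CPM in air 1, 2 and 3. Both comparisons with air turn on which air libraries are kept. Without air 4, 5 and 6 no gene was called in smoke versus air (median -0.17, 32 of 44 below 0), while 27 were called higher in e-cigarette versus air (median 0.59). Without air 1, 2 and 3, 36 genes were called lower in smoke versus air (median -0.82), and in e-cigarette versus air 3 were called, Dnah12, Rsph9 and Cfap52, all lower (median -0.16). Smoke versus e-cigarette kept 35 of its 35 calls in either case.

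Summed over the 44 genes, the level was 805.1 to 1034 CPM in smoke, 1069.7 to 1720.2 CPM in e-cigarette and 894.3 to 1661.8 CPM in air. The lowest e-cigarette library, replicate 3, was thus above the highest smoke library, replicate 1. Of the 18 libraries, e-cigarette 6 was the highest in 20 genes and air 6 in 15. Smoke 6 was the lowest in 18 genes, smoke 5 in 7, smoke 2 and air 1 in 5 each. E-cigarette 3 was the e-cigarette library nearest to smoke, above every smoke library in 18 genes, where the other 5 were so in 31 to 44.

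**Figure D3:**
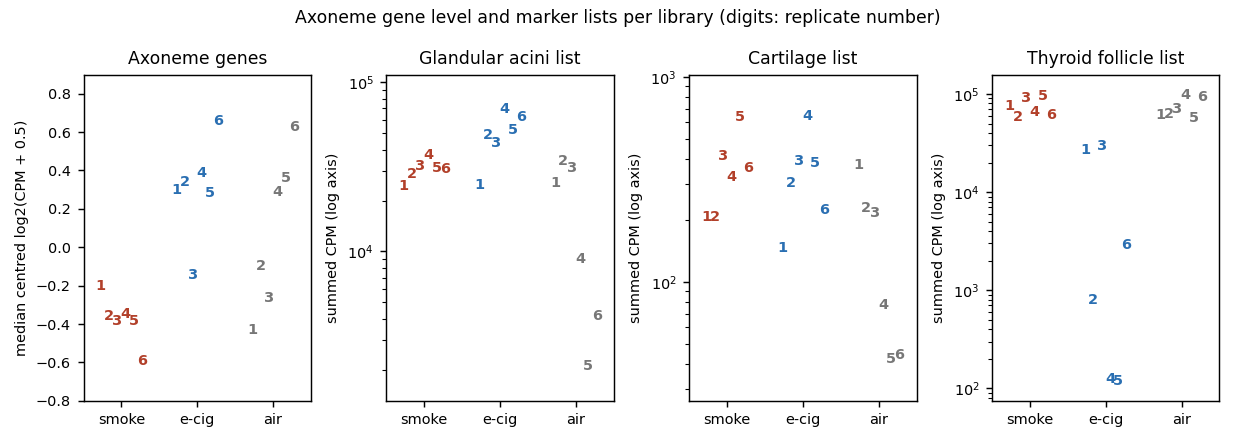
Each library (digit: replicate number; smoke, e-cigarette and air from left to right) by the median over the 44 genes of centred log2(CPM + 0.5), and by the summed CPM (log axes) of the gland, cartilage and thyroid follicle marker lists. Air 4, 5 and 6 are high for axoneme genes and low for gland and cartilage markers, and e-cigarette 2, 4, 5 and 6 are low for thyroid markers.

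Markers of other tissues also differed between the groups. In smoke versus e-cigarette, where 10.4% of all tested genes were called higher and 6.10% lower, 6 of 8 thyroid follicle, 3 of 4 thyroid C cell, 3 of 3 parathyroid, 4 of 6 adipocyte and 1 of 4 tested leukocyte markers were higher. Lower there were 7 of 9 multiciliated, 3 of 8 skeletal muscle, 2 of 8 airway secretory and 1 of 8 basal markers, and no gland, cartilage or squamous marker was called. In e-cigarette versus air (12.1% of all genes higher and 13.0% lower), 6 of 7 tested gland, 7 of 8 muscle, 3 of 8 secretory, 2 of 8 basal and 1 of 8 cartilage markers were higher, the last a share near that of all genes. Lower there were 6 of 8 thyroid follicle, 3 of 4 C cell, 3 of 3 parathyroid, 1 of 6 adipocyte and 1 of 4 leukocyte markers. The adipocyte share, 16.7%, is near that of all genes. The leukocyte call was Cd74 alone, here and in smoke versus e-cigarette. Against air, smoke had 3 of 7 gland markers higher (0.975% of all genes), with 1 of 9 multiciliated and 1 of 8 secretory markers lower (0.616% of all genes). Secretory markers summed to 18660 to 24980 CPM in smoke, 24810 to 43210 CPM in e-cigarette and 21400 to 33580 CPM in air. C cell markers summed to 1126 to 2971 CPM in smoke, 15.01 to 300.0 CPM in e-cigarette and 1637 to 5486 CPM in air, and adipocyte markers to 605.9 to 838.6 CPM in smoke, 361.7 to 650.9 CPM in e-cigarette and 522.3 to 670.5 CPM in air. Of the 8 gland markers listed, 1 was at 0 in all air libraries, and no thyroid follicle marker was at 0 in any library. With thyroid, gland, cartilage and muscle scores as covariates no axoneme gene was called in any comparison, nor was any of the 17537 genes in smoke versus e-cigarette. The median axoneme fold change was then -0.01 in smoke versus air and 0.25 in e-cigarette versus air. In smoke versus e-cigarette it was -0.27, and 42 of 44 values stayed below 0. Thyroid follicle markers summed to at most 29210 CPM in e-cigarette, below the lowest smoke (57870 CPM) and air (56750 CPM) libraries. The covariates thus partly follow exposure, and this fit cannot separate tissue content from exposure. Without e-cigarette 2, 4, 5 and 6, which leaves 2 e-cigarette libraries, none of the 44 was called in smoke versus e-cigarette (147 of all genes), with a median of -0.49 and 42 of 44 values below 0. The part of tissue content in these differences was not tested beyond these values.

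In smoke versus e-cigarette 2 of 3 outer arm dynein genes fell (median -0.78) and 3 of 4 inner arm genes (median -0.81). The median of all 44 genes was -0.75. Dnah5 (ENSMUSG00000022262, chromosome 15, 28203752 to 28472052), a heavy chain motor of the outer arm, had 35.4, 45.8 and 52.4 CPM in smoke libraries (lowest, median and highest of 6, as in all such triplets below), 51.8, 78.7 and 87.5 CPM in e-cigarette libraries and 39.5, 55.1 and 104.9 CPM in air. Only e-cigarette 3 reached into the smoke range, and air ran from within the smoke range to above the e-cigarette range. It fell by 0.78 (SE 0.22, adjusted p = 0.0225) in smoke versus e-cigarette and was at -0.59 (SE 0.22, adjusted p = 0.150) in smoke versus air. Dnah9, the outer arm motor of the distal cilium in humans, fell by 0.79 (SE 0.20, adjusted p = 0.0121) in smoke versus e-cigarette, where Dnah11, its counterpart in the proximal cilium, was at -0.57 (adjusted p = 0.124).

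Among the inner arm motors, Dnah7a (ENSMUSG00000096141, chromosome 1, 53397006 to 53706784), whose promoter is printed above, had 1.85, 2.25 and 3.19 CPM in smoke libraries, 3.74, 5.16 and 6.49 CPM in e-cigarette libraries and 2.17, 4.14 and 5.96 CPM in air. Every smoke library was below every e-cigarette library. Its level in smoke was 0.467 times that in e-cigarette (log2 fold change -1.10, SE 0.23, adjusted p = 0.00268) and 0.571 times that in air (-0.81, SE 0.23, adjusted p = 0.0666). Reads of Dnah7a may be shared with its near-identical copies Dnah7b and Dnah7c, so its counts are uncertain. Dnah6 had 25.1, 30.3 and 36.5 CPM in smoke libraries, 37.1, 60.4 and 74.9 CPM in e-cigarette libraries and 28.9, 43.7 and 88.2 CPM in air, and fell by 0.91 (SE 0.26, adjusted p = 0.0217) in smoke versus e-cigarette. Dnah2, a heavy chain of the double-headed inner arm, was the one dynein motor of the 7 called in e-cigarette versus air.

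Dnah2 (ENSMUSG00000005237, chromosome 11, 69420809 to 69549110) had 11.5, 13.7 and 20.6 CPM in smoke libraries, 17.1, 24.5 and 29.7 CPM in e-cigarette libraries and 12.0, 14.9 and 25.6 CPM in air. It rose in e-cigarette versus air (0.53, SE 0.19, adjusted p = 0.0489) and fell in smoke versus e-cigarette (-0.70, SE 0.19, adjusted p = 0.0165), with smoke at -0.17 against air (adjusted p = 0.654). The groups overlapped in each comparison. Dnah12, a single-headed inner arm motor, passed in no comparison and was at -0.60 (adjusted p = 0.168) in smoke versus e-cigarette and -0.76 (adjusted p = 0.150) in smoke versus air.

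Zmynd10 (ENSMUSG00000010044, chromosome 9, 107547298 to 107551319), which helps assemble dynein arms in the cytoplasm before they enter the cilium, had 6.60, 8.83 and 9.83 CPM in smoke libraries, 11.0, 14.9 and 20.9 CPM in e-cigarette libraries and 10.5, 11.2 and 15.6 CPM in air. Smoke libraries lay below all 12 others. It fell by 0.81 (SE 0.15, adjusted p = 0.00130) in smoke versus e-cigarette and was at -0.46 (SE 0.15, adjusted p = 0.109) in smoke versus air. An antisense gene covers 10.1% of its exonic length, and without strand the reads of both cannot be told apart. Ccdc103, which helps dynein arms attach, was at -0.45 (adjusted p = 0.148) in smoke versus e-cigarette.

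All 3 ruler and nexin link genes fell in smoke versus e-cigarette. Drc1 (ENSMUSG00000073102, chromosome 5, 30281388 to 30366695), a scaffold of the nexin link with the RFX half-site close to its start, had 11.5, 13.2 and 14.9 CPM in smoke libraries, 18.7, 21.9 and 27.7 CPM in e-cigarette libraries and 13.5, 17.2 and 22.1 CPM in air. The smoke values lay within a narrow range that no e-cigarette library entered. The level in smoke was 0.579 times that in e-cigarette (-0.79, SE 0.12, adjusted p = 0.000257). It was at -0.45 (SE 0.13, adjusted p = 0.0615) in smoke versus air and at 0.34 (SE 0.12, adjusted p = 0.0516) in e-cigarette versus air, just outside the threshold in both.

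Ccdc40 (ENSMUSG00000039963, chromosome 11, 119228572 to 119265236), which with Ccdc39 forms the ruler that spaces dynein arms and spokes along the doublet, had 16.8, 18.1 and 23.2 CPM in smoke libraries, 25.6, 30.9 and 42.0 CPM in e-cigarette libraries and 17.2, 20.8 and 33.1 CPM in air. It fell by 0.74 (SE 0.16, adjusted p = 0.00399) in smoke versus e-cigarette and rose by 0.48 (SE 0.16, adjusted p = 0.0337) in e-cigarette versus air. Ccdc39 fell by 0.55 (SE 0.16, adjusted p = 0.0239) in smoke versus e-cigarette and was at 0.20 (adjusted p = 0.389) in e-cigarette versus air. The opposite-strand gene Ttc14 covers 16.9% of the exonic length of Ccdc39.

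Radial spoke genes were divided. Rsph4a (ENSMUSG00000039552, chromosome 10, 33905111 to 33916021), a spoke head protein, had 11.1, 15.9 and 17.0 CPM in smoke libraries, 17.1, 27.4 and 32.3 CPM in e-cigarette libraries and 11.7, 20.8 and 30.6 CPM in air. It fell by 0.85 (SE 0.21, adjusted p = 0.00840) in smoke versus e-cigarette, where the highest smoke and the lowest e-cigarette library nearly met. Lrrc23 (ENSMUSG00000030125, chromosome 6, 124769863 to 124779727), a spoke protein with 2 RFX half-sites in its promoter, had 19.7, 24.4 and 33.8 CPM in smoke libraries, 31.6, 44.1 and 63.5 CPM in e-cigarette libraries and 27.5, 35.4 and 46.9 CPM in air. It fell by 0.83 (SE 0.17, adjusted p = 0.00240) in smoke versus e-cigarette. Rsph1, another head protein, fell by 0.61 (SE 0.17, adjusted p = 0.0182) in the same comparison.

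Rsph9, the partner of Rsph1 and Rsph4a in the spoke head, showed another pattern. It had 10.0, 13.7 and 16.9 CPM in smoke libraries, 12.3, 14.3 and 19.6 CPM in e-cigarette libraries and 13.6, 19.7 and 28.2 CPM in air. Smoke and e-cigarette overlapped widely, and most air libraries were above both medians. The log2 fold change was -0.08 (SE 0.16, adjusted p = 0.780) in smoke versus e-cigarette, -0.49 (SE 0.16, adjusted p = 0.104) in smoke versus air and -0.41 (SE 0.16, adjusted p = 0.0663) in e-cigarette versus air. Tekt1, Cfap52, Dnah12, Tmem212, Ropn1l and Rfx3 were the other genes with a value below 0 in e-cigarette versus air. Ropn1l, of the spoke stalk, was at -0.23 (adjusted p = 0.507) in smoke versus e-cigarette.

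**Figure D4:**
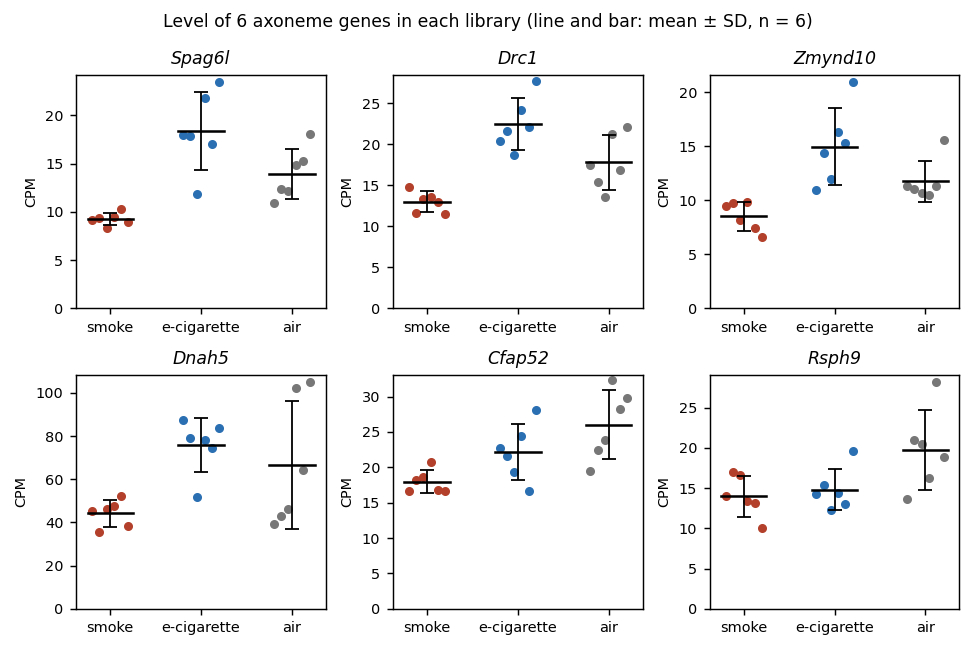
CPM of Spag6l, Drc1, Zmynd10, Dnah5, Cfap52 and Rsph9 in each library of the smoke, e-cigarette and air groups, with the mean ± SD (n = 6). Smoke lies below every e-cigarette library for Spag6l, Drc1 and Zmynd10, air spans 39.5 to 104.9 CPM for Dnah5, and smoke and e-cigarette overlap for Rsph9.

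All 7 central apparatus genes fell in smoke versus e-cigarette, by 0.59 to 1.13 on the log2 scale. Spag6l (ENSMUSG00000022783, chromosome 16, 16753016 to 16829456), a central pair protein needed for ciliary beating in mice, had the smallest p of the 44 and was the one gene called in every comparison. It had 8.33, 9.27 and 10.3 CPM in smoke libraries, 11.9, 17.9 and 23.5 CPM in e-cigarette libraries and 10.9, 13.6 and 18.1 CPM in air, and smoke lay below both other groups without overlap. The level in smoke was 0.505 times that in e-cigarette (-0.99, SE 0.15, adjusted p = 0.000176) and 0.665 times that in air (-0.59, SE 0.15, adjusted p = 0.0474). In e-cigarette it was 1.32 times that in air (0.40, SE 0.15, adjusted p = 0.0496). Reads may be shared with its close paralog Spag6.

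Spag16 (ENSMUSG00000053153, chromosome 1, 69826970 to 70725132), which links elements of the central pair, had 12.0, 13.4 and 16.9 CPM in smoke libraries, 16.3, 26.6 and 33.0 CPM in e-cigarette libraries and 12.1, 20.6 and 30.0 CPM in air. It fell by 0.90 (SE 0.20, adjusted p = 0.00527) in smoke versus e-cigarette, where only e-cigarette 3 reached into the smoke range. Spag17, a large central pair protein, was the gene with the largest fold change of the 44, a fall of 1.13 with the wide SE of 0.35 (adjusted p = 0.0321). Hydin, which forms a projection of the central pair, fell by 0.85 (SE 0.21, adjusted p = 0.00986), Cfap54 by 1.02 (SE 0.27, adjusted p = 0.0129), Spef2 by 0.70 (SE 0.22, adjusted p = 0.0309) and the adenylate kinase gene Ak7 by 0.59 (SE 0.16, adjusted p = 0.0184). None of these 6 passed in either comparison with air.

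Of 10 genes for proteins inside the doublet microtubules, 8 fell in smoke versus e-cigarette. Tekt2 (ENSMUSG00000028845, chromosome 4, 126322121 to 126325688), a tektin filament protein, had 1.72, 2.02 and 3.50 CPM in smoke libraries, 2.52, 4.12 and 5.29 CPM in e-cigarette libraries and 2.82, 2.90 and 3.21 CPM in air. It fell by 0.80 (SE 0.20, adjusted p = 0.00858) in smoke versus e-cigarette, and an opposite-strand transcript covers 20.8% of its exonic length. Air was narrow here, with an SD of 0.149 CPM. Tekt4, Cfap45, Cfap53, Cfap126, Pifo, Enkur and Ak8 fell by 0.56 to 0.83 (adjusted p 0.00932 to 0.0279).

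Cfap52 (ENSMUSG00000020904, chromosome 11, 67924806 to 67965651), another inner protein, was the second gene that passed in smoke versus air. It had 16.6, 17.5 and 20.8 CPM in smoke libraries, 16.6, 22.1 and 28.1 CPM in e-cigarette libraries and 19.5, 26.1 and 32.3 CPM in air. It fell by 0.54 (SE 0.13, adjusted p = 0.0435) in smoke versus air and was at -0.30 (SE 0.13, adjusted p = 0.123) in smoke versus e-cigarette, where the groups overlapped. Tekt1, a tektin like Tekt2, was at -0.49 (SE 0.20, adjusted p = 0.172) in smoke versus air and -0.26 (SE 0.20, adjusted p = 0.413) in smoke versus e-cigarette.

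Of 9 tether, tip, base and other genes, 8 fell in smoke versus e-cigarette. Cfap43 (ENSMUSG00000044948, chromosome 19, 47737561 to 47919299), part of the tether of an inner arm, had 55.7, 61.8 and 68.8 CPM in smoke libraries, 78.2, 98.1 and 112.2 CPM in e-cigarette libraries and 55.7, 80.4 and 120.9 CPM in air. It fell by 0.64 (SE 0.15, adjusted p = 0.00477). Its partner Cfap44 had the larger value of -1.03 with an SE of 0.36 and did not pass (adjusted p = 0.0596), although every smoke library was below every e-cigarette library.

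Tppp3 (ENSMUSG00000014846, chromosome 8, 105467493 to 105471526), a tubulin-binding protein, had the most counts of the 44, with 124.9, 193.1 and 250.1 CPM in smoke libraries, 247.5, 284.4 and 338.2 CPM in e-cigarette libraries and 178.5, 226.4 and 257.6 CPM in air. Only the top of the smoke range met the bottom of the e-cigarette range. It fell by 0.62 (SE 0.14, adjusted p = 0.00541) in smoke versus e-cigarette. Stk33 (ENSMUSG00000031027, chromosome 7, 109279223 to 109439081), a kinase, had 3.98, 4.86 and 7.43 CPM in smoke libraries, 5.92, 9.11 and 10.9 CPM in e-cigarette libraries and 5.32, 7.08 and 10.5 CPM in air, and fell by 0.78 (SE 0.19, adjusted p = 0.00781) with overlap. Sntn, of the ciliary tip, fell by 0.83 (SE 0.22, adjusted p = 0.0154) and Dynlrb2, a dynein light chain of ciliary transport, by 0.81 (SE 0.24, adjusted p = 0.0287). Tmem212 and Ccdc113 fell by 0.73 and 0.76.

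Mlf1 (ENSMUSG00000048416, chromosome 3, 67374097 to 67400003) had the log2 fold change closest to 0 in smoke versus air. It had 58.2, 74.9 and 97.3 CPM in smoke libraries, 77.3, 112.0 and 121.8 CPM in e-cigarette libraries and 61.6, 79.6 and 102.3 CPM in air. It rose by 0.41 (SE 0.14, adjusted p = 0.0304) in e-cigarette versus air and fell by 0.44 (SE 0.14, adjusted p = 0.0292) in smoke versus e-cigarette, with smoke at -0.03 (adjusted p = 0.922) against air. Of the 6 e-cigarette libraries 4 lay above the air range, and no group stood clear of another.

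Of the regulators Rfx3 and Foxj1, only Foxj1 was called, although both lay below 0 in smoke against either group. Rfx3 had 9.51, 10.9 and 13.0 CPM in smoke libraries, 11.1, 13.9 and 15.6 CPM in e-cigarette libraries and 9.26, 13.8 and 18.8 CPM in air, and passed in no comparison (-0.35 in smoke versus air, -0.02 in e-cigarette versus air and -0.33 in smoke versus e-cigarette, adjusted p 0.153 to 0.941). Foxj1 (ENSMUSG00000034227, chromosome 11, 116330704 to 116335399), the regulator of motile ciliogenesis and not one of the 44, averaged 55.5 ± 7.25 CPM in smoke, 82.1 ± 15.9 CPM in e-cigarette and 85.0 ± 17.3 CPM in air (SD, n = 6 each). It fell by 0.57 (SE 0.13, adjusted p = 0.00660) in smoke versus e-cigarette and by 0.61 (SE 0.13, adjusted p = 0.0281) in smoke versus air, and in e-cigarette versus air it was at -0.05 (adjusted p = 0.819). The call against air held in 11 of 18 fits that left out 1 library. It was lost without air 4, 5 or 6 or smoke 3, 4, 5 or 6 (adjusted p up to 0.0671). The call against e-cigarette held in all 18. Over 32 alternative fits, which include these 18, the call against e-cigarette was lost in 2 (values -0.641 to -0.299). That against air was lost in 10 of the 32 (values -0.789 to -0.449).

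Leaving out 1 library at a time, 28 of the 35 genes called in smoke versus e-cigarette were called in all 18 fits. The others lost the call in at least 1 fit, and the highest adjusted p was 0.0728 for Spag17, 0.0694 for Spef2, 0.0691 for Mlf1, 0.0671 for Dynlrb2, 0.0669 for Ak8, 0.0545 for Ccdc39 and 0.0508 for Dnah5. Dnah5 lost the call only without smoke 2. Ccdc39 lost it without smoke 5 or 6 and without e-cigarette 5 or 6. The other 5 genes lost it in several fits, each of which left out a smoke or an e-cigarette library, and no call was lost without an air library or without e-cigarette 3. The sign held in all 18 fits in 43 of 44 genes, the exception being Rsph9, at 0.02 without e-cigarette 6. Against air, none of the 2 calls in smoke and none of the 4 in e-cigarette held in all 18 fits. In smoke versus air Cfap52 was called in 8 fits and Spag6l in 7, and in e-cigarette versus air Ccdc40 and Mlf1 were called in 11 each, Dnah2 in 4 and Spag6l in 2. Neither smoke call held without air 4, 5 or 6, without e-cigarette 2 or without any single smoke library, and Spag6l was also not called without e-cigarette 1. All 4 e-cigarette calls were lost without air 1, air 3, e-cigarette 5 or e-cigarette 6, and all 4 held without air 6 or e-cigarette 3. With DESeq2, 19 genes were called lower in smoke versus air.

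Axoneme genes differ widely in length. In smoke versus e-cigarette the median log2 fold change was -0.74 in 18 genes under 2 kb, -0.76 in 12 genes of 2 to 8 kb and -0.78 in 14 genes of 8 kb or more. Across the 44 genes the correlation of log2 length with fold change was -0.29 (Pearson, genes of the same libraries). It was 0.305 in e-cigarette versus air and -0.015 in smoke versus air. Over 15213 protein-coding genes it was 0.042 in smoke versus e-cigarette, 0.031 in e-cigarette versus air and 0.114 in smoke versus air. On the scale of CPM per kb in air, Tppp3 had the highest level, 122, followed by Mlf1 at 46.8 and Dynlrb2 at 39.9, while Dnah7a was lowest at 0.324, with Dnah11 at 0.751 and Spag17 at 0.796.

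Other cilium genes were examined in 6 lists that share no symbol with the 44. Of 55 other spoke, central pair and doublet genes, 35 fell in smoke versus e-cigarette and none rose (median -0.67), against the background of 6.10% lower. Ccdc146 fell to 14.4 ± 0.703 CPM in smoke, against 27.0 ± 4.76 CPM in e-cigarette (-0.91, adjusted p = 0.000624), and Iqca and Ttc29 fell by 0.96 and 0.91. Of 19 other axonemal dynein genes 10 fell (median -0.70), among them the intermediate chain genes Wdr78 (-0.71, adjusted p = 0.000748) and Wdr63 (-0.87, adjusted p = 0.00123). Of 19 dynein assembly and docking genes 7 fell (median -0.45), led by Armc4, Lrrc6 and Ccdc114. Of 23 tested regulators of ciliogenesis 9 fell and 2 rose (median -0.39). Foxj1, Ccno, Mcidas, Deup1 and Ccdc78 among those that fell are also multiciliated markers counted above, so these counts overlap. Cdc20b, a gene of the multiciliogenesis programme, averaged 0.73 ± 0.251 CPM (SD) in smoke libraries, against 2.48 ± 1.01 CPM in e-cigarette libraries (-1.77, SE 0.34, adjusted p = 0.00165).

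The lists for genes that primary cilia use too gave other counts. Of 32 intraflagellar transport genes, which carry cargo along motile and primary cilia alike, 3 fell in smoke versus e-cigarette and none rose (median -0.11). The share, 9.38%, is near the 6.10% of all tested genes called lower. These were Ttc26, Dync2li1 and Traf3ip1, at -0.43, -0.38 and -0.34. Of 31 primary cilium and BBSome genes none fell and 2 rose (median -0.02), Inpp5e (0.53, adjusted p = 0.000682) and the Hedgehog effector Gli2 (0.88, adjusted p = 0.0134), a share of 6.45% where 10.4% of all tested genes were called higher. The difference between these lists and the 44 genes was not tested.

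In smoke versus air, where 0.616% of all tested genes were called lower and 0.975% higher, 1 of 23 regulators (Foxj1, 4.35%), 1 of 19 dynein genes (Wdr78, 5.26%) and 4 of 55 spoke, central pair and doublet genes (7.27%) fell, Cfap69, Cfap161 and Morn5 with the smallest p among these. No assembly or transport gene was called, and 1 of 31 primary cilium genes rose (Evc, 0.51, adjusted p = 0.0416). In e-cigarette versus air the calls in these lists were near or below the shares of all tested genes, 12.1% higher and 13.0% lower. Higher were 4 of 55 spoke, central pair and doublet genes (7.27%), 1 of 19 dynein genes (5.26%) and 2 of 31 primary cilium genes (6.45%). Lower were 3 of 23 regulators (13.0%), 3 of 32 transport genes (9.38%), 1 of 19 dynein genes (5.26%) and 3 of 31 primary cilium genes (9.68%), and no assembly gene was called.

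**Figure D5:**
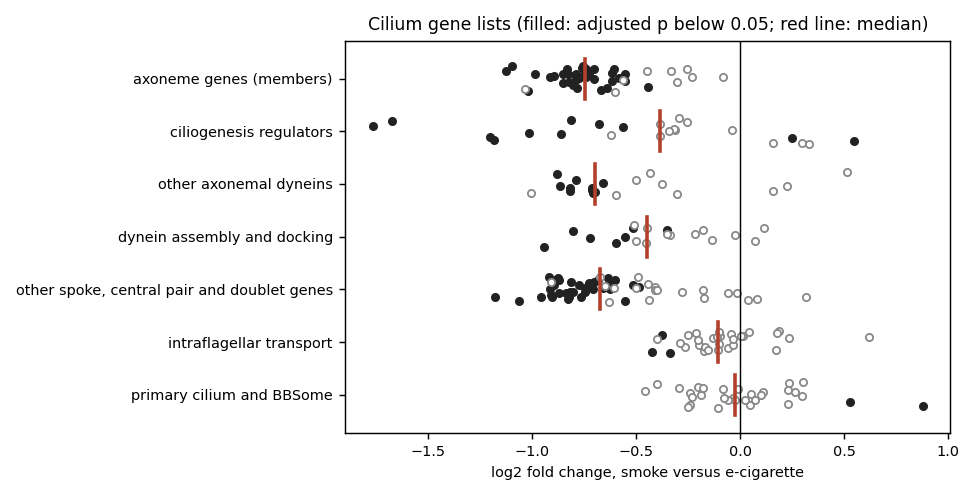
Log2 fold change in smoke versus e-cigarette of each tested gene (points, filled for adjusted p below 0.05) in the 44 axoneme genes and 6 other cilium lists, with the median as a red line. Medians run from -0.75 in the 44 genes to -0.11 in intraflagellar transport and -0.02 in primary cilium and BBSome genes.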

How the data were processed

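Whole-larynx RNA was made into libraries with a kit that does not mark strand, per the labels' protocols. Per the submitters' processing notes, reads were handled with STAR, whose version they do not name, and counted by featureCounts 1.5.0-p3 on GRCm38 (mm10). The strand setting of the counting and the annotation release were not given in the sources used here. The authors deposited raw counts per gene, with no normalization, and 0 columns were unmapped.

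Genes were kept with filterByExpr (minimum count 10, minimum total 15), and 17537 genes were tested in 1 model of all 18 libraries with edgeR 4.0.16 in R 4.3.3 (TMM factors, robust quasi-likelihood F test, Benjamini-Hochberg over all tested genes). A gene is called, or said to have risen or fallen, at an adjusted p below 0.05 in this fit. CPM uses TMM-scaled library sizes, and the SE derives from the F statistic. The fit was checked on simulated counts. Of 67 genes changed 1.5-fold there, 46.3% were recovered in smoke versus air, 43.3% in e-cigarette versus air and 34.3% in smoke versus e-cigarette. At 4-fold, in 66 genes, the shares were 90.9%, 95.5% and 92.4%. Small changes can thus go uncalled. The 3 groups of 6 libraries follow the labels, which name no day, lane or batch. The labels tie no library to 1 animal, so the p-values reflect only how these samples vary, which may be technical. All 45 pairs of libraries of 1 group differed beyond sampling noise, with a chi-square of 16.8 to 149.0 per degree of freedom.

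The 44 genes and the lists were chosen with earlier results of these data known, so no p over the list alone is given. Full statistics are given for called genes (the 12 with the smallest p where more were called) and a fixed set with at least 1 gene per role, and up to 3 called genes per other list. Counts of overlapping genes and near-identical copies are uncertain, and 14 of the 44 overlap exons of another gene, 4 of them over at least 10% of their exonic length, as seen in a reference annotation whose coordinates matched those of 40 of the 44. Promoters are from RefSeq. Alternatives were DESeq2 1.42.0, voom (limma 3.58.1), other scalings, filters and sets of libraries, covariates, a block for replicate number and, added after seeing the data, a gene length offset.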

Additional observations from a re-analysis of the deposited data

Results flagged for a closer look

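In 6 of the 132 combinations of gene and group, 1 library lay far from the other 5 by Dixon's criterion, which chance meets in about 1 in 20 groups. E-cigarette 3 was the lowest of its group for Dnah5 at 51.8 CPM (others 74.4 to 87.5), for Spag16 at 16.3 CPM (others 26.2 to 33.0) and for Cfap54 at 12.9 CPM (others 19.8 to 23.1). Smoke 6 was the lowest of its group for Spef2 at 7.53 CPM (others 10.8 to 12.9) and for Cfap54 at 7.01 CPM (others 9.79 to 10.9). Air 6 was the highest of its group for Zmynd10 at 15.6 CPM (others 10.5 to 11.4).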

How the results depend on the processing

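Apart from the fits that left out 1 library, smoke versus e-cigarette called 30 to 39 of the 44 genes lower under all alternatives but 2. Those 2 called none, and were the 4 composition covariates and the fit without e-cigarette 2, 4, 5 and 6. The comparisons with air were less stable. The number of axoneme genes called in smoke versus air (2 in the reported fit) was 19 with DESeq2, 21 with voom, 4 with RLE factors, 1 with upper quartile factors, 4 with scaling that left out thyroid and parathyroid genes, 6 with the gene length offset, 0 with only the 2 groups compared, 0 with the covariates, 0 without air 4, 5 and 6 and 36 without air 1, 2 and 3. In e-cigarette versus air (4 in the reported fit) it was 1 with voom, 2 with RLE factors, 2 with upper quartile factors, 2 with the thyroid-free scaling, 1 with no filter, 2 with a mean of at least 1 CPM, 2 with only the 2 groups, 0 with the covariates, 27 without air 4, 5 and 6 and 0 without e-cigarette 2, 4, 5 and 6. In smoke versus e-cigarette (35) it was 0 with the covariates and 0 without e-cigarette 2, 4, 5 and 6.

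Over all genes, smoke versus air (279) gave 970 with DESeq2, 1114 with voom, 184 with no filter, 109 with only the 2 groups, 613 with the covariates, 451 without air 4, 5 and 6, 2198 without air 1, 2 and 3, 163 without e-cigarette 2, 4, 5 and 6 and 457 with the length offset. E-cigarette versus air (4406) gave 269 with the covariates and 688 without e-cigarette 2, 4, 5 and 6, and smoke versus e-cigarette (2897) gave 0 and 147. Leaving out 1 library gave 0 to 9 axoneme genes in smoke versus air, 0 to 9 in e-cigarette versus air and 29 to 36 in smoke versus e-cigarette, and 50 to 562, 3678 to 4425 and 2113 to 3237 of all genes. In smoke versus air no axoneme gene was called without air 4, 5 or 6, without e-cigarette 2 or without smoke 2, 3, 4, 5 or 6, and 9 were called without air 1. In e-cigarette versus air none was called without air 3 or e-cigarette 5, and 9 were called without air 6.

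No pairing of samples by replicate number was seen, which does not show that none existed. Same-numbered libraries correlated at -0.446 to 0.157 in their deviations, and none correlated best with its own number. With the replicate number as a block 0, 6 and 31 axoneme genes were called in smoke versus air, e-cigarette versus air and smoke versus e-cigarette, and 39 of all genes in smoke versus air, and Rfx3 turned to 0.007 in e-cigarette versus air. With voom 7 of the 44 genes changed sign in e-cigarette versus air, among them Dnah11 at -0.021.

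The other changes of sign are log2 fold changes, given for the genes that the fixed rule names in each comparison, with the number among all 44 genes beside them. With the covariates, 20 of 44 changed sign in smoke versus air, 6 in e-cigarette versus air and 2 in smoke versus e-cigarette, and smoke versus air was at 0.15 for Rfx3, 0.068 for Dnah5, 0.021 for Dnah9, 0.44 for Dnah11, 0.37 for Dnah2, 0.21 for Dnah6, 0.29 for Dnah12, 0.23 for Ccdc39, 0.17 for Rsph4a, 0.075 for Hydin, 0.18 for Spag16, 0.79 for Spag17 and 0.064 for Sntn. E-cigarette versus air was at 0.25 for Rfx3, 0.39 for Dnah12 and -0.13 for Zmynd10, and smoke versus e-cigarette at 0.11 for Rsph9 and 0.023 for Tekt1. Without air 4, 5 and 6, 12 changed in smoke versus air and 5 in e-cigarette versus air, and smoke versus air was at 0.024 for Dnah5, 0.24 for Dnah11, 0.25 for Dnah2, 0.083 for Dnah12, 0.082 for Ccdc39, 0.031 for Rsph4a, 0.048 for Hydin, 0.003 for Spag16, 0.54 for Spag17 and 0.001 for Ak7, and e-cigarette versus air at 0.34 for Rfx3, 0.70 for Dnah12, 0.071 for Tekt1, 0.006 for Cfap52 and 0.13 for Foxj1. Without air 1, 2 and 3, 25 changed in e-cigarette versus air, which was at -0.27 for Dnah5, -0.10 for Dnah9, -0.40 for Dnah11, -0.33 for Dnah6, -0.14 for Dnah7a, -0.15 for Ccdc39, -0.16 for Rsph1, -0.072 for Rsph4a, -0.14 for Spag17, -0.16 for Cfap45, -0.20 for Dynlrb2, -0.29 for Sntn, -0.11 for Ak7 and -0.16 for the median of the 44 genes. Without e-cigarette 2, 4, 5 and 6, 18 changed in e-cigarette versus air and 2 in smoke versus e-cigarette, and e-cigarette versus air was at -0.023 for Dnah9, -0.15 for Rsph1, -0.092 for Cfap45, -0.056 for Zmynd10, -0.17 for Dynlrb2, -0.10 for Sntn, -0.015 for Ak7 and -0.051 for the median, and smoke versus e-cigarette at 0.076 for Rsph9 and 0.004 for Tekt1. Leaving out 1 library changed the sign of 13 of 44 genes in e-cigarette versus air, of 1 in smoke versus air and of 1 in smoke versus e-cigarette in at least 1 fit. Among the named genes the range crossed 0 in e-cigarette versus air for Dnah11 (-0.043 to 0.35), Sntn (-0.017 to 0.29), Rfx3 (-0.11 to 0.071), Dnah12 (-0.33 to 0.032), Foxj1 (-0.17 to 0.038) and Rsph1 (-0.052 to 0.16), in smoke versus air for Mlf1 (-0.114 to 0.049) and in smoke versus e-cigarette for Rsph9 (-0.14 to 0.017). The cause of these changes was not tested.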
